A study of Homo sapiens with 6 samples.

Results

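The genes described here build, modify and store fatty acids and glycerolipids. They are 40 named genes of fatty acid synthesis, elongation, desaturation, activation, glycerolipid assembly, lipid droplets and phospholipid head groups, taken by symbol from a count table of 57905 gene identifiers, and all 40 had an identifier there. The table covers 6 samples of the human lung adenocarcinoma line A549, an established line of epithelial origin, grown in medium with fetal bovine serum. In 3 samples the cells were transfected with the microRNA miR-19a and in 3 with a control microRNA, miR-NC. All 6 received 25 nM of microRNA with a lipid-based transfection reagent, and harvest was at 24 h. The results hold for 1 cell line, untransfected cells were not analysed here, and nothing in the labels tells whether replicates came from separate cultures. The p-values therefore set the difference between the groups only against the spread among these samples, and that spread may be technical. The question was how added miR-19a alters transcript levels relative to the control microRNA.

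Cells make fatty acids from acetyl-CoA, which ATP citrate lyase and acetyl-CoA synthetase supply, and fatty acid synthase assembles the chain. Elongases and desaturases lengthen the chain and add double bonds, and acyl-CoA synthetases activate it. Acyltransferases then attach the activated chains to glycerol-3-phosphate, lipins remove the phosphate, and the product either becomes triglyceride in a lipid droplet or receives a phospholipid head group. The transcription factor SREBP-1, encoded by SREBF1, raises many of these genes when sterols or unsaturated fatty acids are scarce. A microRNA acts on this network through messenger RNAs that pair with its seed, bases 2 to 8, usually in the 3′ UTR.

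Of the 40 genes, 12 held a seed match of at least 7 nt for the 3p arm of miR-19a in the 3′ UTR of the transcript with the longest coding sequence in GENCODE 29 on GRCh38. The labels do not state which arm was transfected, so all matches given here assume the 3p arm. An 8mer (TTTGCACA) pairs with the whole seed and ends in an A, a 7mer-m8 (TTTGCAC) lacks the A, and a 7mer-A1 (TTGCACA) lacks the pair to base 8. The strongest match was an 8mer in AGPAT5, ELOVL5 and CDS1, a 7mer-m8 in SCD, ACSL3, ACSL4, GPAM, GPAT4 and ETNK1, and a 7mer-A1 in ACSL1, AGPAT3 and CDS2. The microRNA (RefSeq, GRCh38.p14) is printed with its seed in capitals. Sites from some of the carriers that differed between the groups follow, each with its match in capitals and written 5′ to 3′ on the transcript. Those of SCD, GPAT4 and AGPAT5 are not printed. All printed sites lie within a single exon of the 3′ UTR.
hsa-miR-19a-3p: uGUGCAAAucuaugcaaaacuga
ELOVL5, 8mer, chr6:53267683-53267690, minus strand: taccatgctttaatTTTGCACAttcg
CDS1, 8mer, chr4:84649045-84649052, plus strand: tggcagtgtgccttTTTGCACAaata
ACSL3, 7mer-m8, chr2:222942666-222942672, plus strand: tagtgtttttcctagTTTGCACtgat
ETNK1, 7mer-m8, chr12:22686344-22686350, plus strand: attagtctgacaagcTTTGCACttcg
ACSL1, 7mer-A1, chr4:184755731-184755737, minus strand: tatatgtattcttaaTTGCACAaaaa
AGPAT3, 7mer-A1, chr21:43986442-43986448, plus strand: tttcttaactttttgTTGCACAagta
ACSL4 held 4 matches, 3 of them 7mer-m8, and CDS1 held 3, the strongest being its 8mer. The bases flanking each site (30 on each side) were 66.7% A or U at ELOVL5 and ACSL3, and 68.3% at ACSL1. They were 60% A or U at the 8mer of CDS1 and 43.3% at SCD and GPAT4.

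Lipid synthesis genes changed in both directions, and isozymes of one step often moved apart. The acyltransferase GPAT3 rose most, followed by the desaturases SCD and FADS2 and the phosphatase LPIN1, and the acyltransferase AGPAT5 and the lipase PNPLA2 fell most among the tested genes. With edgeR's quasi-likelihood test on the counts, at an adjusted p under 0.05, 15 of the 36 tested members rose and 8 fell, which is 63.9% of them. Across all 12452 tested genes 48.4% passed, with 24.9% higher and 23.5% lower. The median log2 fold change was 0.07 for the members and 0.00 for all tested genes, and the median absolute change was 0.26 and 0.18. Without miR-19a replicate 2 the members' median was 0.04. The 3 libraries of one group lay apart from those of the other for 25 of the 36 members, against 54.0% of all tested genes. A gene was tested when its deposited FPKM, a level scaled for gene length and library total, averaged at least 1. ACSL5, CDS1, DGAT2 and LIPE lay under that level. With the bar raised to an average FPKM of 5, 12 of 30 members rose and 7 fell. Across everything tested at that bar, 2115 of 7251 rose and 1955 fell. The share of members that passed then exceeded the share of all genes by less than at the lower bar. In bulk RNA a lower level per cell and fewer cells holding the transcript cannot be told apart.

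**Figure D1:**
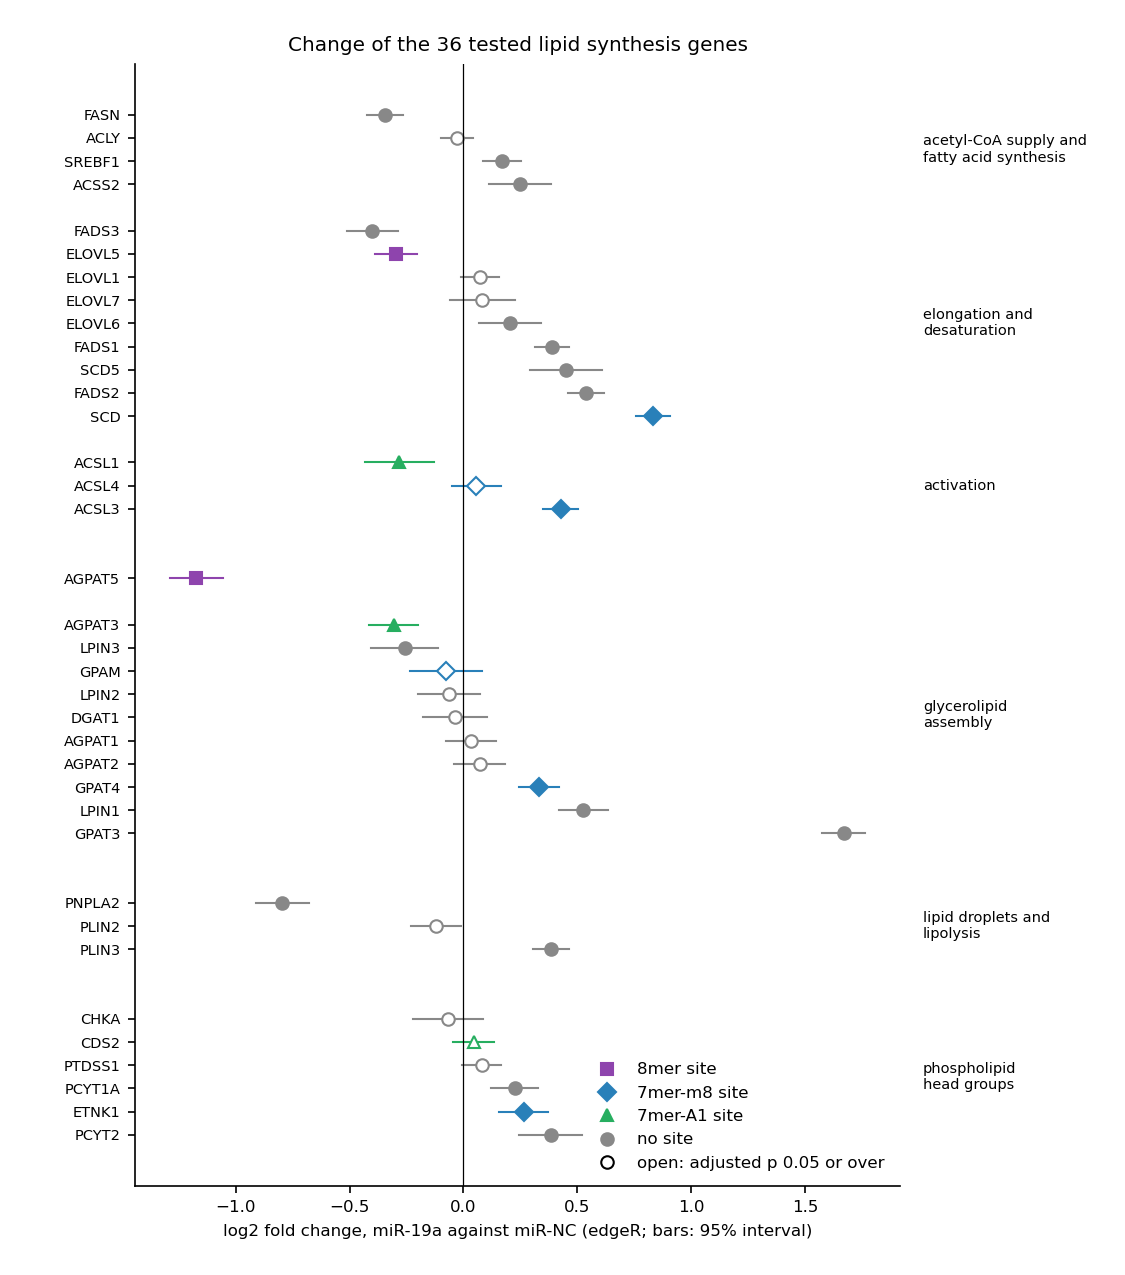
Horizontal axis, log2 fold change of miR-19a against miR-NC from edgeR; rows, the 36 tested genes by role. Bars are normal 95% intervals, colour and shape give the strongest miR-19a match, and open symbols did not pass an adjusted p of 0.05. GPAT3 stands furthest to the right at 1.67 and AGPAT5 furthest to the left at -1.17.

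Around acetyl-CoA and chain synthesis the changes were small and mixed. SREBF1 (ENSG00000072310), the gene of SREBP-1, measured 142, 149.8 and 136 CPM (read counts scaled to library size, after TMM) in miR-NC replicates 1 to 3 and 156, 158 and 167 in miR-19a replicates 1 to 3. Every miR-19a library was above every control, for a rise of 0.17 on the log2 scale (SE 0.043, edgeR adjusted p = 0.0006). FASN (ENSG00000169710), fatty acid synthase, measured 404.5, 437 and 390.5 CPM with the control and 303, 318 and 349 with miR-19a. The groups did not overlap and FASN fell by 0.34 on the log2 scale (SE 0.041, adjusted p = 7.9e-11). ACSS2, which makes acetyl-CoA from acetate, rose by 0.25 (SE 0.069). With miR-NC replicate 3 left out it no longer passed (0.17, adjusted p = 0.0549). ACLY, ATP citrate lyase, did not pass at -0.03 (SE 0.036, 95% interval -0.10 to 0.04). The textbook targets of SREBP-1 thus did not share 1 direction. Of 12 members so listed, 8 rose (SREBF1, ACSS2, SCD, FADS1, FADS2, ELOVL6, ACSL3 and LPIN1), FASN and ELOVL5 fell, and ACLY and GPAM did not pass, where 24.9% of all tested genes rose and 23.5% fell. Their median was 0.22, and that of the 24 tested members outside the list was 0.05, with 7 higher and 6 lower.

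The desaturases of monounsaturated and polyunsaturated chains were higher, apart from FADS3. SCD (ENSG00000099194), stearoyl-CoA desaturase, which makes oleate from stearate, went from 439, 487 and 421 CPM with the control to 790.2, 817 and 790.2 with miR-19a. The lowest miR-19a library exceeded the highest control library by a wide margin relative to the spread within groups, a rise of 0.83 on the log2 scale (SE 0.039, adjusted p = 1.4e-28). SCD5, the second human stearoyl-CoA desaturase, measured 17.5, 17.5 and 16.4 CPM against 24.3, 21.9 and 24.1, a rise of 0.45 (SE 0.081). By length-scaled level SCD5 was a minor form, at 4.32% ± 0.216 of the summed FPKM of both desaturases in the control and 3.34% ± 0.241 with miR-19a (SD, n = 3).

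FADS2 (ENSG00000134824), the delta-6 desaturase that starts the synthesis of long polyunsaturated chains, measured 316, 334 and 286 CPM with the control and 441, 445 and 471 with miR-19a. The groups were apart, and the rise was 0.54 on the log2 scale (SE 0.040, adjusted p = 1.8e-18). Its neighbour FADS1, the delta-5 desaturase, rose by 0.39 (SE 0.038), from 284.5 ± 9.5 to 372.5 ± 5.38 CPM. Exons of FADS1 and FADS2 overlap on opposite strands by 490 nt, 4.79% of the exon length of FADS1, and no source used here states whether counting used strand. FADS3, the third gene of the cluster, went the other way, from 60.8, 58.2 and 55.1 CPM to 45.6, 43.2 and 43.2, with no overlap and a change of -0.40 (SE 0.057, adjusted p = 1.6e-08). Its share of the summed FPKM of the 3 genes went from 14.15% ± 0.56 to 8.3% ± 0.307.

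The elongases, which add carbon pairs to a chain, did not move as a group. ELOVL5 (ENSG00000012660), which extends polyunsaturated chains and holds the 8mer printed above, measured 116, 118 and 115 CPM in the control libraries and 95.7, 100.8 and 87.8 in the miR-19a libraries. It fell in all miR-19a libraries relative to all controls, by 0.30 (SE 0.047, adjusted p = 1.8e-07). In edgeR's test for a change beyond 1.2 fold ELOVL5 did not pass (adjusted p = 0.368). ELOVL6, which extends palmitate to stearate, rose by 0.20 (SE 0.069, adjusted p = 0.0114), with overlapping groups. It no longer passed when miR-19a replicate 2 was left out (0.17, adjusted p = 0.0739). The same held when miR-NC replicate 1 was left out (0.15, adjusted p = 0.115) and with limma on log2(FPKM + 1) (adjusted p = 0.104). ELOVL1, which makes very long saturated chains, and ELOVL7 did not pass, at 0.07 (SE 0.043) and 0.08 (SE 0.073). The summed FPKM of these 4 elongases was 89.9 ± 2.58 in the control and 87.5 ± 3.81 with miR-19a, values that overlap. The share of ELOVL5 in that sum went from 30.8% ± 0.93 to 25.5% ± 0.814. The sum leaves out elongases that were listed among the other genes of lipid synthesis and storage. Of those, ELOVL2 rose by 0.46 (SE 0.072, edgeR adjusted p = 1.6e-07), from a mean FPKM of 6.21 to 8.45. ELOVL3 did not pass at -0.13 (SE 0.27), and ELOVL4 lay under the filter.

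Acyl-CoA synthetases, which activate fatty acids for all later steps, diverged. ACSL3 (ENSG00000123983), a form found at the endoplasmic reticulum and on nascent lipid droplets, measured 267.5, 276 and 265 CPM against 367, 374.5 and 345. The groups were apart and ACSL3 rose by 0.43 (SE 0.038, adjusted p = 2.9e-15). ACSL1 fell by 0.28 (SE 0.077, adjusted p = 0.0016), from 25.9 ± 0.713 to 21.3 ± 1.8 CPM. ACSL4, which prefers arachidonate, did not pass despite its 4 matches for miR-19a (0.06, SE 0.055, 95% interval -0.05 to 0.16). ACSL3 held 73.3% ± 0.676 of the summed FPKM of the family in the control and 79.0% ± 0.818 with miR-19a. ACSL5 was barely detected, with 6 to 7 counts per control library and 9 to 16 per miR-19a library.

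Among transcripts for the first acylation of glycerol-3-phosphate, the share of GPAT3 was higher with miR-19a. GPAT3 (ENSG00000138678), an enzyme of the endoplasmic reticulum that commits acyl chains to glycerolipids, measured 44.4, 43.8 and 44.8 CPM with the control and 142, 141 and 139.5 with miR-19a. Replicates differed by a few CPM and the groups by 1.67 on the log2 scale (SE 0.049, adjusted p = 8.2e-40), which is 3.18 fold. GPAT4, a second enzyme of the endoplasmic reticulum with a 7mer-m8, rose by 0.33 (SE 0.044), from 102.9 ± 0.824 to 129.5 ± 5.32 CPM. GPAM, the mitochondrial form, also with a 7mer-m8, did not pass (-0.08, SE 0.081, 95% interval -0.24 to 0.08). The 3 enzymes together went from 28.2 ± 0.335 to 58.8 ± 0.382 in summed FPKM. GPAT3 took 45.7% ± 0.738 of that sum in the control and 68.8% ± 0.933 with miR-19a, and GPAM went from 8.03% ± 0.753 to 3.6% ± 0.105.

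At the next step, acylation of lysophosphatidic acid, AGPAT5 was lower. AGPAT5 (ENSG00000155189), an acyltransferase reported at mitochondria and the endoplasmic reticulum, measured 72, 65.4 and 68.7 CPM in the control and 28.8, 31.3 and 31.2 with miR-19a. No library overlapped, and the log2 difference was -1.17 (SE 0.060, adjusted p = 8.7e-27), a level 0.444 times that of the control. Its 8mer lies at position 635 of a 3′ UTR of 2278 nt, with 76.7% A or U in the flanking bases. AGPAT3, with a 7mer-A1 near the end of its 3′ UTR, fell by 0.31 (SE 0.055), and AGPAT1 and AGPAT2 did not pass, at 0.03 (SE 0.056) and 0.07 (SE 0.057). Summed FPKM over the 4 genes went from 66.9 ± 2.83 to 58.9 ± 1.59, with groups apart. The sum leaves out AGPAT4, which was listed among the other genes of lipid synthesis and storage. AGPAT4 rose by 0.46 (SE 0.12, edgeR adjusted p = 0.0011), from a mean FPKM of 0.85 to 1.16. The share of AGPAT5 went from 22.05% ± 0.634 to 11.0% ± 0.404, and AGPAT2 held the largest share in both groups.

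Lipins, which turn phosphatidate into diacylglycerol, kept a similar sum while LPIN1 and LPIN3 exchanged order. LPIN1 (ENSG00000134324) measured 45.8, 51.1 and 49.4 CPM against 73.8, 66.7 and 70.2, a rise of 0.53 (SE 0.055, adjusted p = 1.3e-12) with groups apart. LPIN3 fell by 0.26 (SE 0.075, adjusted p = 0.003), and LPIN2 did not pass at -0.06 (SE 0.069). In summed FPKM the lipins stood at 14.7 ± 0.617 and 15.1 ± 0.444, with overlapping libraries. LPIN1 held 28.2% ± 1.87 of that sum in the control and 38.9% ± 0.862 with miR-19a, and LPIN3 went from 41.8% ± 1.68 to 33.6% ± 0.837.

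**Figure D2:**
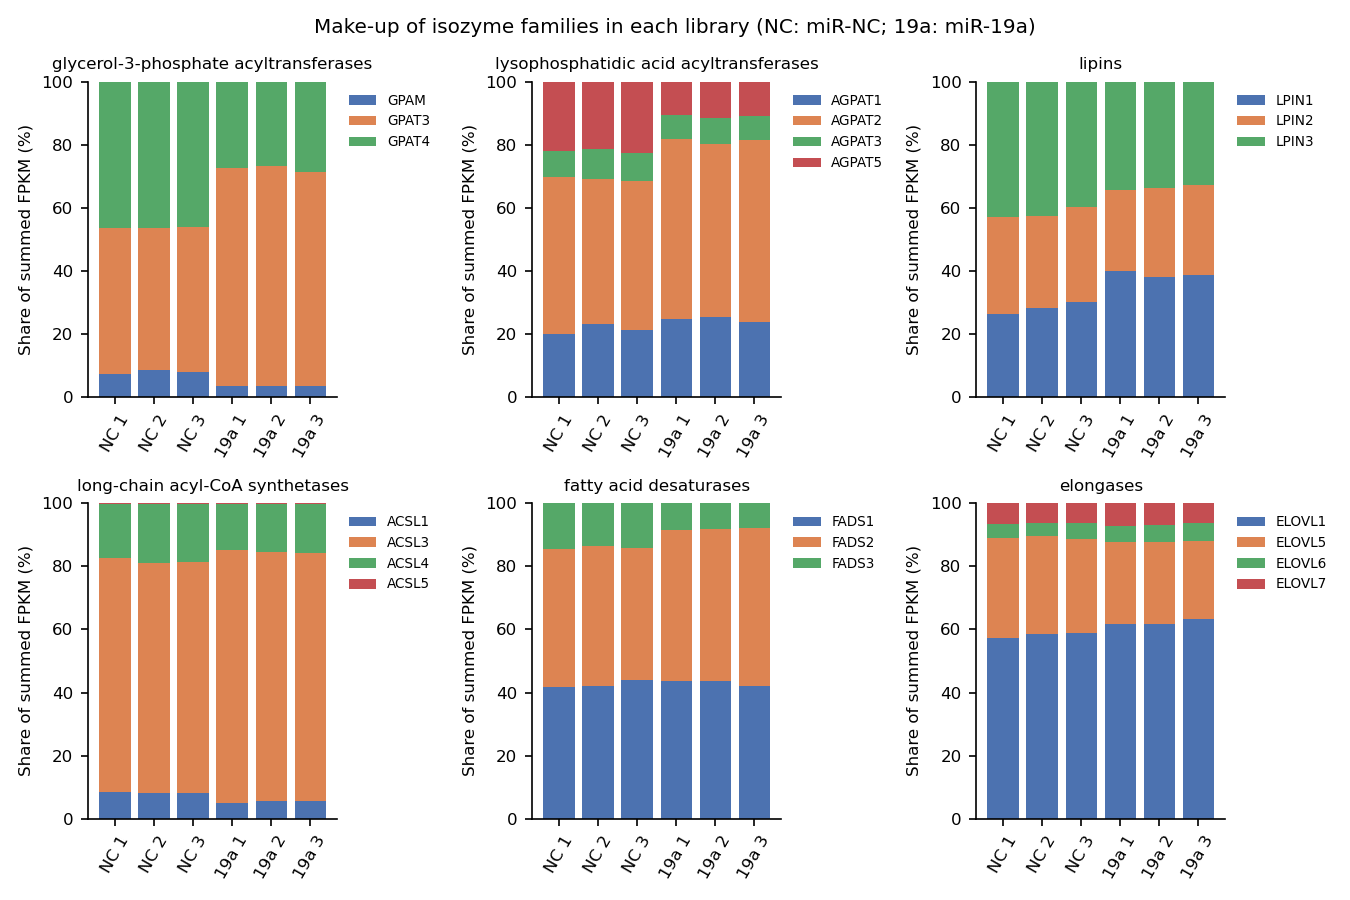
Stacked bars give each gene's share, in percent, of the summed FPKM of its family in each of the 6 libraries (NC, miR-NC; 19a, miR-19a). GPAT3 fills 44.9 to 46.3% of its family in the controls and 67.8 to 69.6% with miR-19a, AGPAT5 shrinks in every miR-19a library, and LPIN1 widens as LPIN3 narrows.

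DGAT1, a diacylglycerol acyltransferase of the last step to triglyceride, did not pass at -0.04 (SE 0.071, 95% interval -0.18 to 0.10). DGAT2, the other diacylglycerol acyltransferase, lay under the expression filter with 67 to 105 counts per control library and 51 to 57 per miR-19a library. In a fit of all 28934 genes with any count, where 21.5% passed, DGAT2 fell by 0.73 (SE 0.17, adjusted p = 0.00014).

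Genes of lipid droplets and lipolysis also split. PNPLA2 (ENSG00000177666), adipose triglyceride lipase, which takes the first fatty acid from triglyceride, measured 65.2, 70.1 and 64.9 CPM with the control and 41.6, 35.9 and 38 with miR-19a. The groups were far apart, with a change of -0.80 (SE 0.059, adjusted p = 6e-19), and its 3′ UTR held no match for miR-19a. LIPE, hormone-sensitive lipase, which acts on diacylglycerol, was rare, with 49 to 59 counts per control library and 25 to 37 with miR-19a, and fell by 0.89 (SE 0.22, adjusted p = 0.00053) in the fit without the filter. Its exons overlap those of the antisense gene LIPE-AS1 (4.89 and 3.32 CPM) by 9.6%. PLIN3, a droplet coat protein, rose by 0.38 (SE 0.041), from 148 ± 3.03 to 193 ± 5.14 CPM. PLIN2, the coat protein that marks stored neutral lipid in most cells, did not pass at -0.12 (SE 0.057, adjusted p = 0.0748), although its 3 miR-19a libraries lay below all controls, and limma on log2(FPKM + 1) called it (adjusted p = 0.0381).

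From the list of other genes of lipid synthesis and storage come genes that act on PNPLA2 or after it. They were picked after their values were seen, so their shared direction is partly a matter of choice. HILPDA, of the same list, did not pass at -0.16 (SE 0.098, edgeR adjusted p = 0.177). ABHD5, the coactivator of PNPLA2, went from 15.2 ± 1.01 to 10.7 ± 0.624 CPM (-0.50, SE 0.10, adjusted p = 2.2e-05). MGLL, the monoglyceride lipase that completes triglyceride breakdown, fell by 0.22 (SE 0.048). G0S2, an inhibitor of PNPLA2, fell by 0.52 (SE 0.22, adjusted p = 0.0430) from a low 3.03 ± 0.29 CPM. DESeq2 did not call G0S2 (adjusted p = 0.107), nor did fits that left out any single library except miR-NC replicate 3 (adjusted p from 0.0571 to 0.15).

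Genes of phospholipid head groups were higher or did not pass, apart from the rare CDS1. PCYT2, the rate-setting enzyme of phosphatidylethanolamine synthesis by the Kennedy pathway, rose by 0.38 (SE 0.071), from 26.4 ± 2.92 to 34.5 ± 1.13 CPM. ETNK1, ethanolamine kinase, the first step of that branch, rose by 0.26 (SE 0.054), and PCYT1A, which sets the rate of the phosphatidylcholine branch, by 0.22 (SE 0.053). In edgeR's test for a change beyond 1.2 fold, PCYT2 (adjusted p = 0.0821), ETNK1 (adjusted p = 0.747) and PCYT1A did not pass. CHKA, choline kinase, and PTDSS1, phosphatidylserine synthase, did not pass, at -0.07 (SE 0.078) and 0.08 (SE 0.044). CDS1 (ENSG00000163624), which makes CDP-diacylglycerol for phosphatidylinositol and cardiolipin, had 18, 22 and 22 counts in the control libraries and 1, 3 and 5 in the miR-19a libraries. In the fit without the filter it fell by 2.80 (SE 0.49, adjusted p = 1.5e-07), the largest change of any member and the least precise. CDS2, the other CDP-diacylglycerol synthase, did not pass at 0.05 (SE 0.046) and held 96.6% ± 0.5 of their summed FPKM in the control and 99.6% ± 0.311 with miR-19a.

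Set by their strongest match for miR-19a, carriers of an 8mer were lower and carriers of a 7mer-m8 were not. Both tested 8mer carriers, AGPAT5 and ELOVL5, fell, as did CDS1 in the fit without the filter. Among all 630 tested genes with an 8mer, 305 fell and 98 rose, with a median log2 fold change of -0.15. Of the 6 members with a 7mer-m8, SCD, ACSL3, GPAT4 and ETNK1 rose and 0 fell, with a median of 0.30. ACSL4 and GPAM, the other carriers, stood at 0.06 and -0.08. The 767 tested genes of that class had 284 lower and 185 higher, with a median of -0.06. Of 3 members with a 7mer-A1, ACSL1 and AGPAT3 fell and CDS2 did not pass. Of all 540 tested genes of that class 174 fell and 143 rose, with a median of -0.03. Of the 25 tested members without a match, 11 rose and 4 fell (FASN, FADS3, LPIN3 and PNPLA2), and of all 8478 tested genes without one 2494 rose and 1839 fell. A match was present in 30.6% of tested members and in 18.6% of the 10415 tested genes with a 3′ UTR. With the longest annotated 3′ UTR of each gene 15 members carried a match in place of 12, the additions being LPIN1 (7mer-m8), PCYT1A (8mer) and PCYT2 (7mer-A1), all of which rose.

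**Figure D3:**
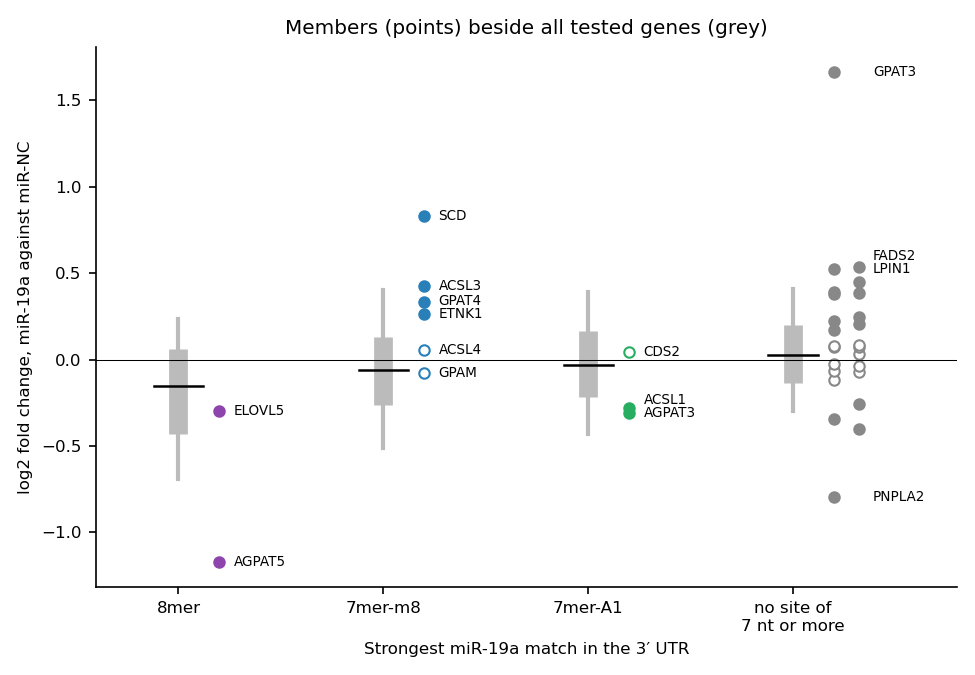
Vertical axis, log2 fold change; horizontal axis, strongest miR-19a match in the 3′ UTR. Points are tested members (open, adjusted p of 0.05 or over); grey bars span the quartiles of all tested genes of the class, thin lines the 10th to 90th percentile, and black lines the median. The 8mer carriers AGPAT5 and ELOVL5 lie below 0, at -1.17 and -0.30, and SCD, at 0.83, lies highest among the 7mer-m8 carriers.

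By deposited FPKM the levels of these genes spanned a wide range. ACLY was the most abundant member in the control, at 130.1 ± 2.04 FPKM, followed by SCD at 84.2 ± 6.0, PLIN3 at 52.9 ± 0.919 and ELOVL1 at 52.4 ± 2.29. The libraries of PLIN3 and ELOVL1 overlapped, so their order is not resolved. With miR-19a SCD stood first, at 148 FPKM, and ACLY second at 126. GPAT3 moved from rank 18 (12.9 FPKM) to rank 7 (40.4 FPKM), AGPAT5 from rank 14 (14.8) to rank 25 (6.47) and FASN from rank 5 (46 FPKM) to rank 9 (35.8). FADS2, FADS1 and ELOVL5, at 28.4, 28 and 27.7 FPKM in the control, overlapped there and stood at 40.8, 36.2 and 22.3 with miR-19a.

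**Figure D4:**
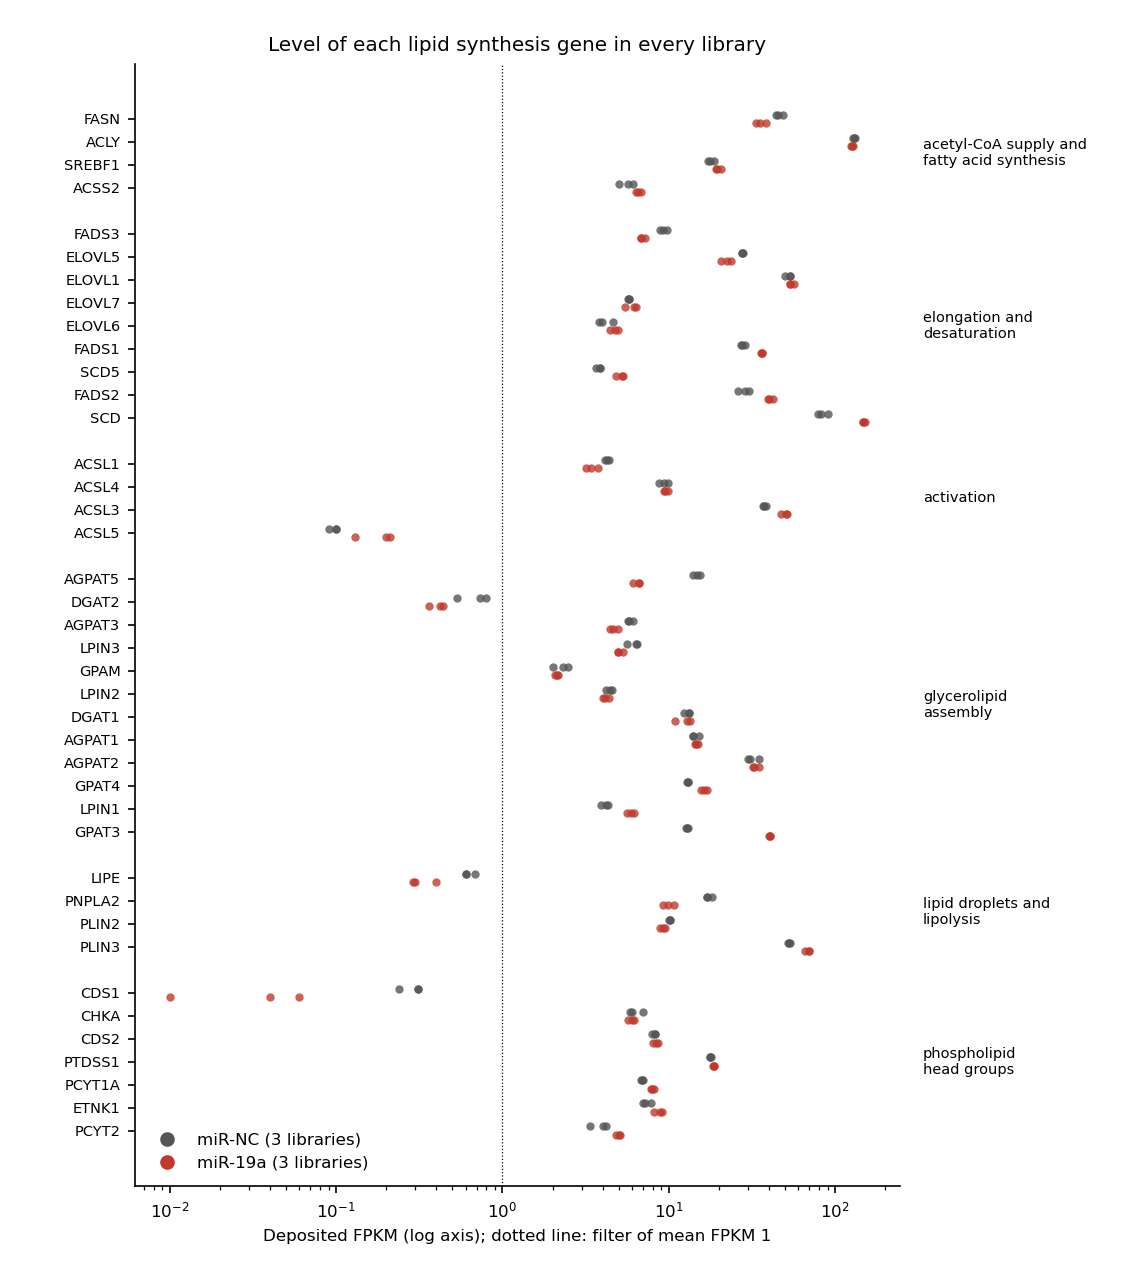
Deposited FPKM (log axis) of all 40 genes, by role, with 1 point per library (grey, miR-NC; red, miR-19a). The dotted line marks the filter of mean FPKM 1, under which ACSL5, DGAT2, LIPE and CDS1 lie. GPAT3, AGPAT5, SCD and PNPLA2 show the widest gaps between groups among tested genes.

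Regulators of SREBP processing were higher or did not pass. Of 6 tested genes 4 rose and 0 fell at an adjusted p under 0.05 with edgeR, with a median of 0.13, where 24.9% of all tested genes rose and 23.5% fell. MBTPS1, a protease that cleaves SREBP and was named for its small p-value, rose by 0.13 (SE 0.043). It did not pass when miR-19a replicate 1 was left out (adjusted p = 0.0752) or with limma on log2(FPKM + 1) (adjusted p = 0.0524). MBTPS2, of the same list, rose by 0.13 (SE 0.046, edgeR adjusted p = 0.02). INSIG1, which retains the SREBP complex in the endoplasmic reticulum and is itself raised by SREBP, measured 33 ± 2.07 CPM with the control and 76.3 ± 2.66 with miR-19a, and rose by 1.21 (SE 0.058, adjusted p = 4.8e-28). SREBF2, the gene of SREBP-2, rose by 0.79 (SE 0.043), from 94.8 ± 2.46 to 164 ± 3.6 CPM. The escort protein SCAP and INSIG2, a paralogue of INSIG1, did not pass, at -0.02 (SE 0.056) and -0.06 (SE 0.082).

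Other genes of lipid synthesis and storage also went both ways. Of 44 tested, 17 rose and 14 fell, with a median of 0.02, against 24.9% higher and 23.5% lower over all tested genes. Only 8 fell when miR-19a replicate 1 was left out, 9 when miR-NC replicate 1 was left out, and 9 with DESeq2. SELENOI, which joins ethanolamine to diacylglycerol, rose by 0.37 (SE 0.043), from 122 ± 2.77 to 157 ± 6.96 CPM. ETNK2, a second ethanolamine kinase, rose by 1.12 (SE 0.15) from a low 4.03 ± 0.42 CPM, and HACD1, a dehydratase of chain elongation, by 0.43 (SE 0.063). SLC27A2, a fatty acid transporter and very long chain acyl-CoA synthetase, went from 27 ± 2.35 to 12.5 ± 0.882 CPM, a log2 difference of -1.11 (SE 0.086, adjusted p = 8.1e-18). MBOAT7, which adds arachidonate to phosphatidylinositol, fell by 0.48 (SE 0.041), and MLYCD, malonyl-CoA decarboxylase, which removes the substrate of chain synthesis, by 0.79 (SE 0.11).

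Library totals lay between 15699037 and 17957932 counts, and every pair of libraries within a group differed by more than sampling noise (chi-square per gene 1.59 to 4.15). Markers of A549, among them KRT8 and ALDH1A1, summed to 6000 to 6051 FPKM in the control and 5886 to 5934 with miR-19a, and 9 of 10 passed the filter (3 higher, 4 lower). EPCAM, a common epithelial marker, lay under it (1.51 and 1.93 CPM). Fibroblast markers summed to 1.74 to 2.05 FPKM in the control and 3.03 to 3.70 with miR-19a, with 1 of 8, COL1A1, over the filter (8.86 ± 1.02 and 25.4 ± 1.77 CPM, a rise of 1.52). COL1A2, DCN and LUM averaged at most 0.253 CPM in either group. COL3A1 measured 0.144 CPM with the control and 0.452 with miR-19a, and THY1 measured 5.25 and 3.65 CPM. The part of these markers in the results was not tested. Immune and endothelial markers summed to at most 0.29 FPKM and adipocyte markers to at most 0.13. Exons of other genes on the opposite strand covered 29.9% of exon length in AGPAT1, 28.1% in PCYT2, 17.8% in PLIN3 and 10.4% in PNPLA2. Each of those partners (PPT2-EGFL8, NPB, AC027319.1 and AP006621.1) averaged under 1 CPM. For CHKA (16.3%) the partner AP002807.1 measured 6.32 and 3.98 CPM, and for LPIN3 (13.5%) EMILIN3 measured 1.05 and 0.683 CPM. On the same strand, AC233992.1 (1.23 and 1.19 CPM) covered 10.7% of DGAT1. Abundant genes on the opposite strand overlapped shorter stretches, with RAI1 (84.3 and 81.4 CPM) over 6.92% of SREBF1 and HSF1 (92.6 and 96.2 CPM) over 3.36% of DGAT1. ZDHHC6 (47.3 and 51.5 CPM) covered 3.4% of ACSL5, and ANAPC11 (109.4 and 116.6 CPM) covered 0.391% of PCYT2. The effect of these overlaps on the counts was not tested.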

How the data were processed

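The authors' deposited table gives, per gene and library, a whole-number read count and an FPKM value, named so per the file headers and rounded to 2 decimals. Libraries were poly(A)-selected and read as pairs of 150 nt, per the labels' protocols, and the submitters' processing notes name bcl2fastq 2.17.1.14. Aligner, counter, strand setting, build and annotation: not given in the sources used here. Symbols came from a gene name table (51996 identifiers) and GENCODE 29 (342), and 5567 had none. ACACA and PECAM1, listed for comparison, matched no identifier and were not used.

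Counts were tested over all genes with edgeR 4.0.16 (R 4.3.3; quasi-likelihood F test, two-sided, TMM, Benjamini-Hochberg), 3 libraries against 3, on genes whose FPKM averaged 1 or more. SE was obtained as |log2FC| divided by the root of F, intervals are normal 95% intervals from that SE, and means are ± SD over 3 libraries. The common biological coefficient of variation was 0.0352. The test was checked on counts simulated with a common dispersion and a far smaller share of changed genes than passed here. That check does not give the error rate in these data. Seed matches were read from GENCODE 29 transcripts, whose GRCh38 coordinates are printed. Members and lists were chosen with earlier results of these data known, and the SREBP-1, oxidation, PPAR and other lists are textbook lists. Values in every library are given for members that passed with an absolute change of at least 0.4, for SREBF1 and FASN, and for 8mer carriers. Of other lists at most 3 genes each way were named, besides those stated. Alternatives were DESeq2 1.42.0, limma 3.58.1 on log2(FPKM + 1) or log2(FPKM + 0.1), other scalings and other filters. Further ones were edgeR's test for a change beyond 1.2 fold (glmTreat), a replicate block and each library left out. Figures used matplotlib 3.10.9 under Python 3.11.15.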

Additional observations from a re-analysis of the deposited data

How the results depend on the processing

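Of the 23 members that passed, 12 kept the call in every alternative that tested them. With single libraries left out 21 kept it each time, the exceptions being ACSS2 and ELOVL6. Over 570 values of single members under the alternatives, 16 lost the call, 3 gained it, 2 turned sign and the rest kept direction and side of the threshold. The sign turned for 2 genes that did not pass, DGAT1 (from -0.0958 to 0.0435 over single libraries left out) and CHKA (from -0.1187 to 0.0165). The test for a change beyond 1.2 fold, which is stricter than a cut on the estimate, left 8 members higher and 4 lower. Over all genes it left 1076 and 869. Called members that did not pass it were ACSS2, SREBF1, ELOVL5, ELOVL6, ACSL1, GPAT4, AGPAT3, LPIN3, PCYT1A, PCYT2 and ETNK1. Under that test the other lipid genes numbered 5 higher and 5 lower, and the oxidation genes 1 and 0. Of the other lipid genes 9 fell with DESeq2 and 9 with a mean FPKM of at least 5, and of the oxidation genes 2 fell with DESeq2, 2 without a filter and 2 with a mean FPKM of at least 5. Leaving out single libraries gave 14 to 15 members higher and 8 lower of 36. Over all 12452 genes 2761 to 2982 were then higher and 2552 to 2802 lower. The same fits gave 8 to 13 other lipid genes lower, 2 to 4 oxidation genes lower, and a members' median between 0.0376 and 0.0849. With the replicate number as a block 15 members rose and 8 fell, with 3083 and 2903 over all genes. Same-numbered libraries did not deviate together (correlations from -0.05 to 0.01), so the numbers were not taken as pairs. The causes of these shifts were not tested. Depth limits ACSL5, CDS1, DGAT2 and LIPE most, and changes under 1.2 fold rest on 3 libraries per group.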

Other observations

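Genes of fatty acid oxidation, the opposite pathway, had a median absolute log2 change of 0.21, against 0.18 over all tested genes. Of 23 tested with edgeR, 9 rose and 4 fell at an adjusted p under 0.05, where 24.9% and 23.5% of all tested genes did, with a median log2 fold change of 0.10. Both subunits of the electron transfer flavoprotein, which passes electrons from acyl-CoA dehydrogenases to the respiratory chain, rose, ETFA by 0.30 (SE 0.038) and ETFB by 0.34 (SE 0.045). SLC25A20, the carnitine and acylcarnitine carrier of mitochondria, rose by 0.62 (SE 0.086), from 14.4 ± 0.818 to 22.15 ± 1.38 CPM. The subunits of the trifunctional protein parted, as HADHB fell by 0.25 (SE 0.044) and HADHA rose by 0.14 (SE 0.0385). ECHS1, the short chain hydratase, fell by 0.21 (SE 0.042). Only 2 fell when any of miR-19a replicate 1, miR-NC replicate 1 or miR-NC replicate 2 was left out.

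Among textbook targets of the PPAR nuclear receptors 7 of 12 were expressed enough to test, and 4 rose and 2 fell, with a median of 0.21, against 24.9% higher and 23.5% lower over all tested genes. The genes that fell were ACSL1 and PDK4, a kinase that inhibits pyruvate dehydrogenase. PDK4, at -0.23 (SE 0.086), did not pass with DESeq2 (adjusted p = 0.0666) or when miR-19a replicate 1 (adjusted p = 0.118), miR-NC replicate 1 (0.0663) or miR-NC replicate 3 (0.0508) was left out. ANGPTL4, a secreted inhibitor of lipoprotein lipase, measured 43.8 ± 0.746 CPM with the control and 105.6 ± 1.68 with miR-19a, and rose by 1.27 (SE 0.051, adjusted p = 3.2e-32). CIDEC, a protein that fuses lipid droplets, rose by 1.40 (SE 0.24) from a low 1.43 ± 0.54 CPM. PLIN2, in the same list, did not pass.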
